A study of Mus musculus with 9 samples.

Results

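The uracil (U) positions of conserved mouse 5′ untranslated regions, probed with dimethyl sulfate (DMS), were grouped by the base directly before and directly after them. The deposited table writes U as T and held 7088 U readings among 32967 readings of all bases, in 161 amplicons of 69 transcripts. These 7088 readings covered 5955 distinct U positions, of which 1133 were read in 2 overlapping amplicons. The base before the U (the 5′ neighbour) was A in 1139 readings, C in 2326, G in 1528 and U in 2070, and 25 readings at an amplicon edge had none. The base after it (the 3′ neighbour) was A in 904 readings, C in 1890, G in 2198 and U in 2070, and 26 had none.

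All samples were total RNA of E14TG2a, a mouse embryonic stem cell line, with 3 independent samples per group. The first group was cells deprived of ATP over 10 min by 10 mM sodium azide, which blocks respiration, together with 10 mM 2-deoxyglucose, which blocks glycolysis. The second was untreated cells, taken through the same steps without those agents, and both in-cell groups were probed at 37 °C over 6 min with 1.6% DMS, buffered by 250 mM bicine at pH 8.5. The third was RNA refolded in vitro, for which the sources used here do not state how DMS was applied. The mutation background of each U was not measured, because DMS-free samples were not analysed here. The amplicons hold no expression values by which the cell type could be checked.

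DMS methylates A and C where their pairing face is free, and a reverse transcriptase that reads through the adduct leaves a mutation in the cDNA. U and G carry a proton at the pairing position and react poorly at neutral pH. Part of them loses that proton in alkaline buffer, so that DMS can also mark U and G that are not paired. In an RNA helix the base pairs stack on each other, so neighbouring bases tend to be paired or unpaired together.

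Reactivity is given as CPM, the counts on a nucleotide per 1000000 counts of its amplicon and sample. It is a share of the amplicon's signal, so a higher value at U can go with a lower one elsewhere. Depth ranged from 5743965 to 12616275 counts per sample, the median U had 73 to 314 counts per sample, and 12 to 252 U had 0 counts in a sample.

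The strongest and weakest U show the surroundings behind the results below. Each line holds the 15 nucleotides centred on the U, in the order 5′ to 3′ and with T for U, and the capital marks the U that was measured. The first group of 6 had the highest lowest-sample CPM, with at most 1 U per transcript, in amplicons of at least 5000 counts in every sample.
Ube3a U523: gacaggtTaaaaaat
Eed U328: gcgacagTggggggg
Smad6 U328: tttgggaTttttttt
Ddx17 U854: atgagtcTttttttt
E2f3 U250: ggaaaaaTaaaaaga
Nlk U648: gttggaaTttttttt
The next pair had no count in any of the 9 samples, and the last line is the U with the highest median among those followed by C.
Tjap1 U348: aggctgaTtccagga
Ddx17 U689: tttgtcaTtctgaac
Taok2 U481: ggggctgTcactctc
The numbers are transcript positions as the deposited table gives them, and gene names come from the RefSeq table of GRCm38.p6, which matched 68 of the 69 transcripts. All 6 strong U stood directly before 5 or more identical bases, a run of A in Ube3a and E2f3, of G in Eed and of U in Smad6, Ddx17 and Nlk.

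The median U lay below the medians of A and C and above that of G in 8 of 9 samples, and in ATP-depleted replicate 2 it was above C, at 4891 against 4555 CPM. In untreated cells the median U was at 3963, 4325 and 3404 CPM in replicates 1 to 3. After ATP depletion the 3 values were 4224, 4891 and 3696 CPM, and in vitro they were 3499, 3613 and 3633 CPM. The in-cell groups overlapped, and in both of them replicate 3 was the lowest and replicate 2 the highest, whereas the in vitro samples lay close together. Refolded RNA lay below the ATP-depleted samples without overlap (two-sided exact permutation p = 0.1, adjusted p = 0.5 over 6 tests). The group means (SD, n = 3) were 4270.5 ± 599 CPM after ATP depletion, 3897 ± 464 CPM in untreated cells and 3581 ± 72.5 CPM for refolded RNA. For comparison, the untreated means were 8589 CPM for A, 4829 CPM for C and 837 CPM for G. The ratio of the U median to the joint A and C median was 0.678 ± 0.114, 0.601 ± 0.0860 and 0.562 ± 0.0161 in the same order (SD, n = 3). No comparison of this ratio between groups passed (two-sided exact permutation p = 0.5 for both comparisons with untreated cells and 0.3 for in vitro against ATP-depleted, all 0.5 after Benjamini-Hochberg adjustment over the same 6 tests). With 3 samples against 3, this test cannot give a p below 0.1.

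U next to A was the most reactive and U next to C the least, on both sides and in every sample. In untreated cells U after A had 5029, 5255 and 4212 CPM in replicates 1 to 3, and U after C had 3041, 3354 and 2708 CPM. The lowest sample of the first class thus lay above the highest of the second. The class means in untreated cells were 4832 ± 549 CPM after A, 4358 ± 550 after U, 3993 ± 427 after G and 3034 ± 323 after C (SD, n = 3). U before A had 5234, 5573 and 4373 CPM in untreated cells, against 3079, 3417 and 2703 CPM before C. On this side the untreated means were 5060 ± 619 CPM before A, 4240 ± 554 before G, 3883 ± 417 before U and 3066 ± 357 before C. Guanine and uracil neighbours therefore stood in the middle, with G above U on the 3′ side and U above G on the 5′ side. Their order was the same within every sample, by as little as 3732 against 3730 CPM on the 3′ side in in vitro replicate 2. Between samples of a group these middle classes overlapped, except between U and G before the site in vitro.

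**Figure D1:**
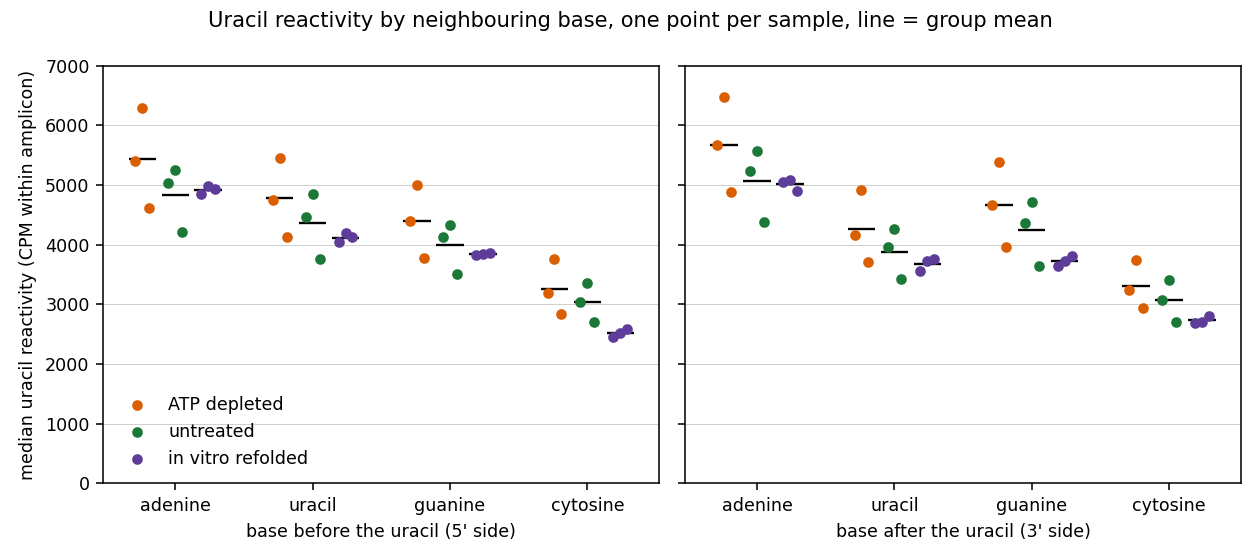
Median reactivity of U (y axis, CPM within an amplicon, from 0) by the base before it (left panel) and after it (right panel), with 1 point per sample, colours for the 3 groups and a line at each group mean. U beside adenine is highest and U beside cytosine lowest on both sides, from 4832 to 3034 CPM by preceding base and from 5060 to 3066 CPM by following base in untreated cells, and the in vitro samples scatter least.

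U next to A or C together was lower than U next to G or U. The ratio of medians was 0.906 ± 0.0194 on the 3′ side and 0.827 ± 0.0280 on the 5′ side (SD over 9 samples, below 1 in 9 of 9). C neighbours, beside which U was lowest, outnumbered A neighbours in this pool. There were 1890 against 904 readings on the 3′ side and 2326 against 1139 on the 5′ side. The pooled ratio depends on these numbers and does not describe A and C neighbours alike. A split by purine and pyrimidine gave ratios above 1 in 9 of 9 samples, 1.29 ± 0.0358 for a 3′ purine and 1.26 ± 0.0767 for a 5′ purine. Each of these 4 ratios differed from 1 with p = 0.00390625 by an exact sign-flip test over 9 samples, the smallest p it can give, which covers the spread between samples reading the same nucleotides. A against C, a pair chosen after the class medians had been seen, gave 1.74 ± 0.172 on the 5′ side and 1.73 ± 0.0966 on the 3′ side over 9 samples.

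The 16 combinations of both neighbours ran from A on both sides to C on both sides. The highest was U between 2 adenines (AUA, 214 readings), with a mean of the 9 sample medians of 6382 CPM and a range of 5317 to 7765 CPM. Then came UUA at 5699 CPM and AUG at 5540 CPM. The lowest was U between 2 cytosines (CUC, 747 readings) at 2419.5 CPM, with a range of 1912 to 3036 CPM, after CUG at 3010.3 CPM and CUU at 3175 CPM. AUA ranked first and CUC last in all 9 samples. In untreated cells, 37.4% of U in AUA were above the A and C median of their own amplicon, against 7.23% of U in CUC and 16.5% ± 5.8 (SD, n = 3) of all U.

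**Figure D2:**
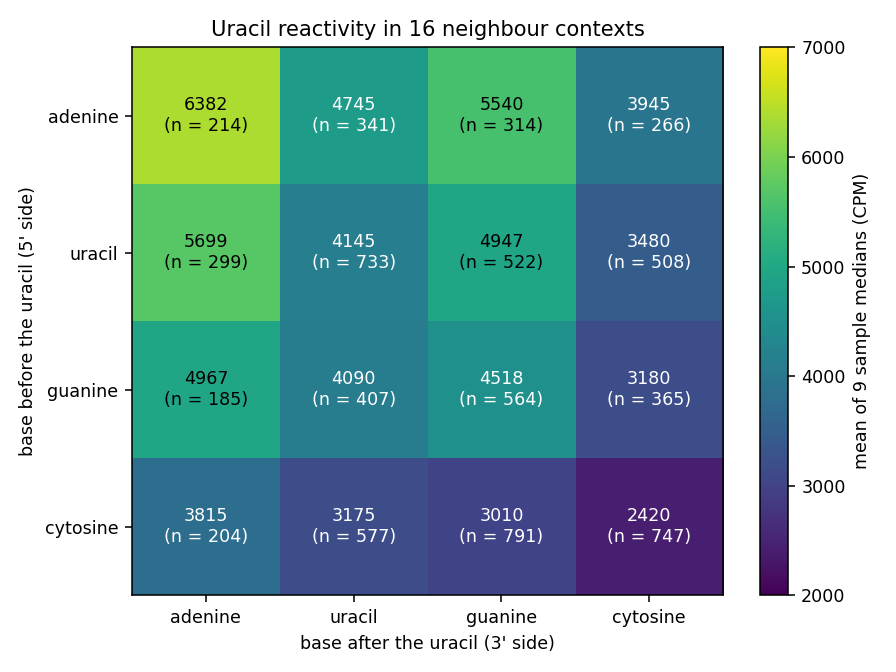
Heat map of U reactivity in the 16 combinations of preceding base (rows) and following base (columns), coloured and printed as the mean of the 9 sample medians in CPM, with the number of readings. The level falls from 6382 CPM between adenines to 2419.5 CPM between cytosines.

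U beside A was also above U beside C within most transcripts and at different base compositions. Of 58 transcripts with at least 5 U in each class, U after A had the higher median than U after C in 57 in untreated cells, 58 after ATP depletion and 58 in vitro. On the 3′ side, U before A exceeded U before C in 50 of 52 transcripts in untreated cells. The middle step was less regular, since U before G exceeded U before U in 42 of 61 transcripts in untreated cells and in 29 of 61 in vitro. The comparison was repeated by the number of G and C among the 8 nucleotides 2 to 5 positions away on either side. With 0 to 3 of them G or C, untreated U had 5043 ± 523 CPM after A and 3600 ± 399 CPM after C, and with 6 to 8 it had 4633 ± 562 and 2812 ± 288 CPM (SD, n = 3). The difference between neighbours was thus present at both ends of the composition range.

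The same A over C ratio was computed around the other bases. Over 9 samples a preceding A against a preceding C gave 1.74 ± 0.172 at U, 2.39 ± 0.203 at C, 0.979 ± 0.0239 at A and 0.902 ± 0.0372 at G. A following A against a following C gave 1.73 ± 0.0966 at U, 1.46 ± 0.0765 at C, 1.00 ± 0.0217 at A and 1.55 ± 0.0818 at G. On the log2 scale the U ratio was above that of A and G and below that of C on the 5′ side, and above that of all 3 other bases on the 3′ side, in 9 of 9 samples each. These are descriptions without a test, since A and C were picked as the extreme classes at U after its medians had been seen.

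Long runs of A or U directly after the U set a small group of readings apart. This split was made after the strongest U had been seen, so it is given as a description without a test. Untreated U before a run of 5 or more A had 15012, 17709.9 and 14054 CPM (11 readings in 9 transcripts). U before a run of 1 to 4 A had 5197, 5544 and 4363 CPM. The first U of a stretch followed by 5 or more further U had 10076, 8874 and 7966 CPM in untreated cells (24 readings in 12 transcripts), against 3874, 4095 and 3344 CPM where 1 to 4 U followed. By comparison, U before exactly 4 A or 4 further U had untreated means of 5319 ± 1938 and 4282 ± 219 CPM. All 3 groups had the same order, with in vitro means of 17417 ± 2239 CPM for A and 11462 ± 557 CPM for U.

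Runs of G or C, and runs on the 5′ side, were nearer to the other U. U before 5 or more G had 5204 ± 683 CPM in untreated cells (14 readings) and U before 1 to 4 G had 4237 ± 556 CPM. For C the values were 3875 ± 177 CPM (19 readings) and 3064 ± 360 CPM. U directly after 5 or more A had 6370 ± 922 CPM (8 readings), against 4820 ± 551 CPM after 1 to 4 A, and the last U of a stretch of 6 or more had 4837 ± 971 CPM (25 readings), against 4521 ± 661 CPM after 1 to 4 U. Runs of G and C before the U went the other way. U after 5 or more G had 3041 ± 510 CPM (14 readings), against 4005 ± 429 CPM after 1 to 4 G. For C the values were 2539 ± 660 CPM (18 readings) and 3044 ± 326 CPM. Among the 100 U with the highest lowest-sample CPM, 19% lay beside a run of 5 or more identical bases, against 2.67% of the 5237 U in amplicons of at least 5000 counts. These 100 came from 33 transcripts, and 3% of them were followed by C against 26.6% of the 5237, 48% by G against 30.5% and 25% by A against 12.6%.

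**Figure D3:**
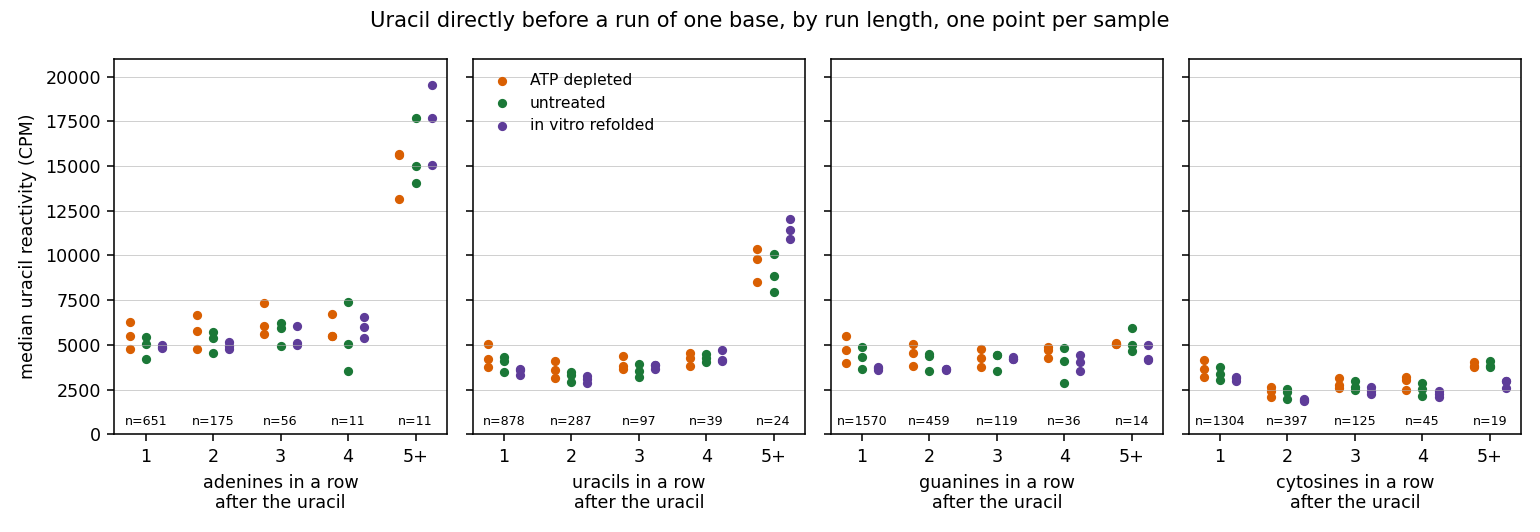
Median reactivity of U (y axis, CPM) directly before a run of one base, by the length of the run (x axis, 1 to 4 and 5 or more), with 1 panel per run base, 1 point per sample and the number of readings at the bottom. Before 5 or more adenines the untreated mean is 15592 CPM and before 5 or more uracils 8972 CPM, while guanine and cytosine runs of that length stay at 5204 and 3875 CPM.

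The strong sites named by rule had these values. Ube3a encodes a ubiquitin ligase, and its U523, before a run of A, had 27550.5, 34865 and 24488 CPM in untreated cells, 22827.5, 32158 and 27059 CPM after ATP depletion and 36183, 30669 and 31728 CPM in vitro. The A after it was at 5298 CPM and the U before it at 2645 CPM in untreated cells, far below it. A second amplicon read this U at 22504 to 41147 CPM. Eed, a subunit of the Polycomb repressive complex, had 23823, 23176 and 21959 CPM in untreated cells at U328, and the G after it, the first of its run, had 12865 CPM. E2f3, a transcription factor of the cell cycle, had 15012, 17709.9 and 18062 CPM in untreated cells at U250 and 28302, 28739 and 26004 CPM in vitro. Smad6, an inhibitor of BMP signalling, ranged from 20787 to 28531 CPM over the 9 samples at U328 with a median of 25420 CPM. At that site the A before it was stronger still, at 44224 CPM in untreated cells. Ddx17, an RNA helicase, ranged from 16954 to 21819 CPM at U854, and Nlk, a kinase of the Wnt pathway, from 10733 to 43741 CPM at U648. The sixth of these U had a lowest sample of 10733 CPM and the next transcript one of 10085 CPM.

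At the other end, 7 U readings in amplicons of at least 5000 counts had no count in any sample. Tjap1 U348 lay in libraries of 97296 to 213898 counts, where 3 counts would be 30.8 CPM or less. The A directly before it had a median of 12.2 CPM over the 9 samples, and the U after it had 847 CPM. Ddx17 U689 and U727 had no count in either of the 2 amplicons that read them. The A before U689 had medians of 28.9 and 61.6 CPM in these amplicons, and the A before U727 had 94.7 and 70.0 CPM. The remaining 2 readings were Smad6 U1053 and Rnf10 U241, after G and C, named like U727 after their values were seen. In 5 of the 7 readings the base before the empty U was thus an A that itself lay under 100 CPM. These were Tjap1 U348 and the 2 Ddx17 positions, the latter read in 2 amplicons each. The share of all U with such an A before them is not given here.

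Runs of U were ordered along their length. In stretches of exactly 3, the first U had 3255 ± 283 CPM in untreated cells, the inner one 4440 ± 440 and the last one 4898 ± 717 (286 readings each, SD over n = 3). In vitro the same places had 3082 ± 205, 4317 ± 203 and 4495 ± 80.9 CPM. The last U was above the first in every sample of these groups. In the 159 stretches of 4 or more, the longest of 10, the untreated means were 4025 ± 447, 3665 ± 392 and 5015 ± 605 CPM for the first, inner and last places. The first place was no longer the lowest there.

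U reactivity followed that of the A or C next to it. For each sample the log2 values were centred on the amplicon mean, separately for U and for A and C together. The pooled correlations therefore include the difference in level between A and C neighbours. In untreated cells the correlations within each neighbour base, given further below, were lower. Over 3465 pairs of a U with a preceding A or C, Spearman's correlation was 0.506 ± 0.0548 in untreated cells, 0.563 ± 0.0638 after ATP depletion and 0.459 ± 0.0543 in vitro (SD, n = 3 samples). Over 2794 pairs with a following A or C it was 0.447 ± 0.0650, 0.506 ± 0.0564 and 0.413 ± 0.0686. These are correlations across sites, given as a description, and both members of a pair share a library, a depth and an amplicon. With the neighbour's value taken from the other 2 replicates of the group, which share no library with the U, the mean over 9 samples went from 0.509 to 0.524 on the 5′ side and from 0.456 to 0.476 on the 3′ side.

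The relation was local. In untreated cells the correlation fell from 0.506 at 1 nucleotide before the U to 0.299 at 2, 0.129 at 3 and 0.0728 at 4. After the U it fell from 0.447 to 0.337, 0.186 and 0.0958 over the same distances. In vitro it was 0.236 at 2 nucleotides and 0.0389 at 3 on the 5′ side and lay within 0.05 of 0 from 4 nucleotides on. The in vitro values were below the untreated ones at each of the 10 distances on both sides in the group means. Single samples overlapped, with 0.427, 0.427 and 0.521 in vitro and 0.451, 0.561 and 0.507 untreated at 1 nucleotide before the U. The median U had 95, 73 and 135 counts in these in vitro samples, against 149 to 222 in the untreated ones. Whether this lower depth accounts for the lower correlation was not tested.

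**Figure D4:**
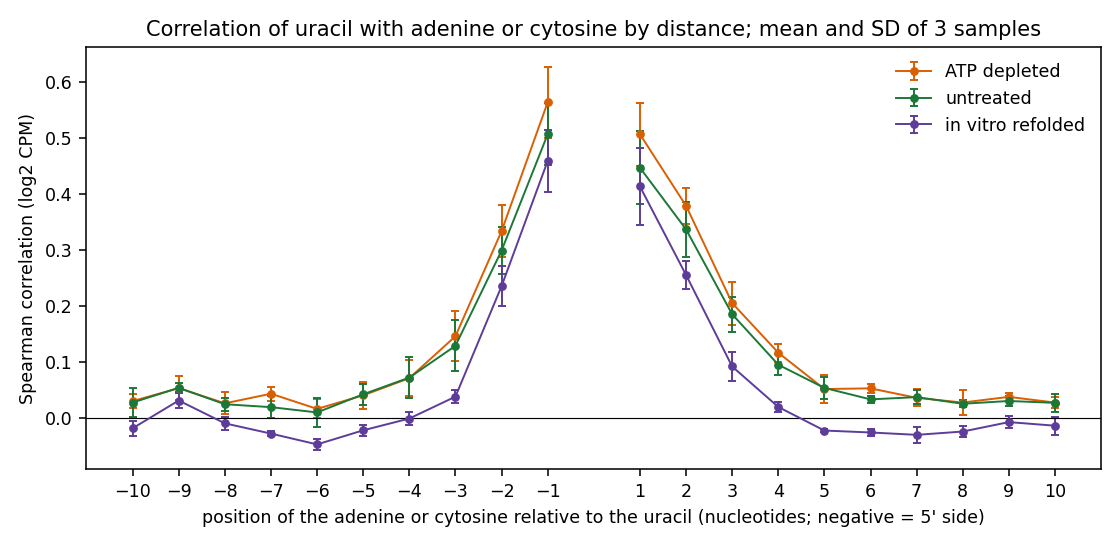
Spearman's correlation between the log2 reactivity of U and that of an adenine or cytosine (y axis) by the position of the latter relative to the U (x axis, nucleotides), as mean and SD of 3 samples per group. The correlation is highest at 1 nucleotide, 0.506 before and 0.447 after the U in untreated cells, and close to 0 from about 5 nucleotides.

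C neighbours were followed more closely than A neighbours. In untreated cells the correlation with a preceding C was 0.471 ± 0.0533 and with a preceding A 0.334 ± 0.0528, and with a following C 0.415 ± 0.0525 and a following A 0.246 ± 0.0583 (SD, n = 3). Neighbouring U gave 0.415 ± 0.0709, and G gave 0.274 ± 0.0625 before and 0.249 ± 0.0625 after the U. The pairs were also divided into 4 equal groups by the neighbour's level in each sample. U after the least reactive group of C had 1765 ± 140 CPM in untreated cells, and U after the most reactive group had 4369 ± 599 CPM, 2.47 ± 0.155 times as much. In vitro the same groups had 1268 ± 97.4 and 3940 ± 28.9 CPM, a ratio of 3.12 ± 0.212. For a preceding A the ratio was 1.65 ± 0.0192 in untreated cells and 1.93 ± 0.0103 in vitro. U after the least reactive group of A had 3460 ± 453 CPM in untreated cells, between the extremes of U after C. U after the most reactive group of C, at 4369 CPM, was still below the 4832 CPM of all U after A.

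No single U was called as changed by ATP depletion. limma called 0 of 7078 U with a count, and 0% of the 32938 nucleotides of all 4 bases, at an adjusted p under 0.05. An unadjusted p under 0.05 was reached by 283 U, 4.00% of them, and 0 U were called in any of the 22 other limma settings. The median log2 difference of U was 0.06, against 0.00 over all bases. It was 0.006 without ATP-depleted replicate 2, 0.02 without untreated replicate 3 and 0.11 without ATP-depleted replicate 3. In 156 of 161 amplicons the mean of U minus the mean of A and C was higher after ATP depletion, with a median difference of 0.09 (log2), but none of these amplicons was called (0% of 161, and 3 had an unadjusted p under 0.05). The amplicons were read in the same samples, so their shared direction is not independent evidence. All 8 neighbour classes had higher group means after ATP depletion, and in none did the 3 samples lie apart from the 3 untreated ones. Of the 32 classes of all 4 bases, 15.6% lay apart in this comparison. The U with the largest differences were Tulp4 U177 and Sertad2 U238 upward and Taok2 U547 and Kmt2e U366 downward, none of them called (limma adjusted p = 1 each). Tulp4 U177 had 527, 6265 and 3692 CPM in untreated cells and 11980.2, 8816 and 5842 CPM after depletion, so its groups overlapped. The groups did not overlap at Sertad2 U238, Taok2 U547 and Kmt2e U366. Second amplicons gave smaller log2 differences, 0.18 at Tulp4 U177, 0.31 at Sertad2 U238 and -0.29 at Taok2 U547. At Kmt2e U366 the second amplicon gave 0.07, in the opposite direction to the first at -0.78.

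Refolded RNA differed from cells at single U in both directions. How DMS was applied to refolded RNA is not stated, so refolding and probing conditions cannot be told apart. Against untreated cells limma called 564 of 7078 U, 252 higher and 312 lower in vitro. That is 7.97%, under the 9.14% called over all 4 bases and under the 12.2% of A and 15.5% of C, and above the 1.71% of G. Against ATP-depleted cells 543 U were called, 166 higher and 377 lower, which is 7.67% against 8.45% of all bases (4.34% higher and 4.11% lower). Both comparisons share the in vitro samples. The counts fell to 225 to 345 against untreated cells when any 1 of the 3 untreated samples or in vitro replicates 1 or 2 was left out, and to 195 to 348 against ATP-depleted cells for the same in vitro replicates or any ATP-depleted one.

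The calls were split unevenly by neighbour. After G, 96 U were higher and 58 lower in vitro than in untreated cells, whereas after C 65 were higher and 138 lower, after U 55 and 86, and after A 35 and 28. The backgrounds over all bases were 4.56% higher and 4.58% lower, and U after G reached 6.29% higher and U after C 5.94% lower. By the following base, 92 U before G were higher and 138 lower, 56 and 66 before C, 62 and 76 before U, and 40 and 31 before A. Without untreated replicate 2 the split after C was 39 higher and 38 lower, and without replicate 3 that after G was 40 and 39, so that neither split was seen without that sample.

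**Figure D5:**
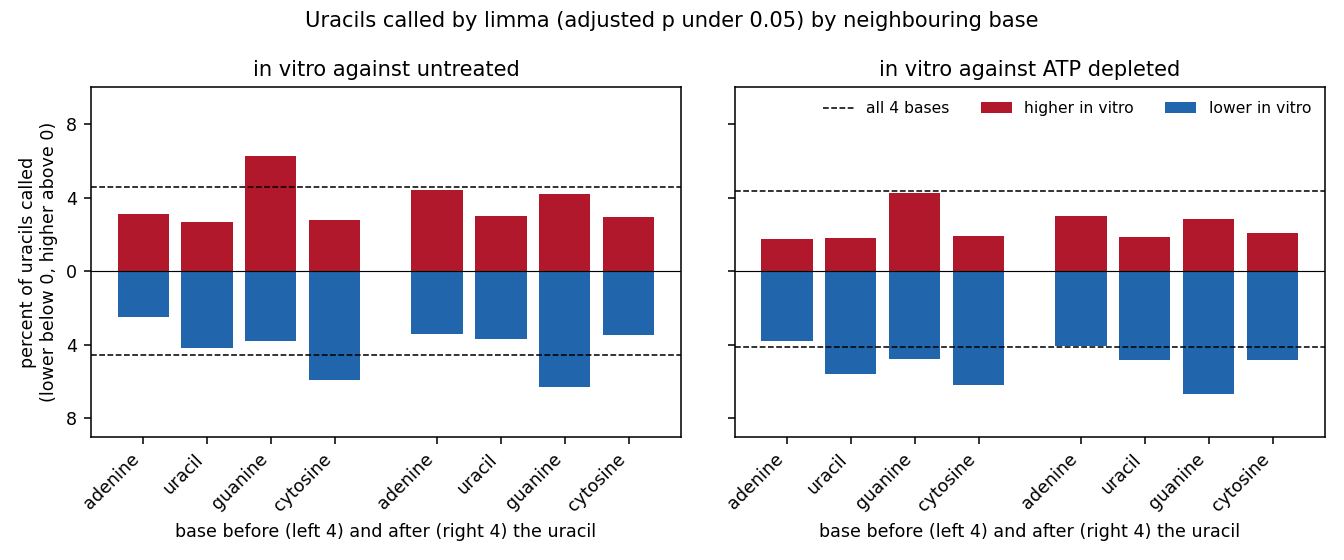
Percent of U called by limma at an adjusted p under 0.05 as higher (red, above 0) or lower (blue, below 0) in vitro than in untreated cells (left) or ATP-depleted cells (right), by preceding and following base, with dashed lines for all 4 bases. Against untreated cells, U after guanine is called higher in 6.29%, U before guanine lower in 6.28% and U after cytosine lower in 5.94%.

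At the level of classes, U after C was lower in vitro than in untreated cells without overlap, at 2447, 2515 and 2586 CPM against 2708 to 3354 CPM, a mean of 2516 ± 69.2 against 3034 ± 323. The exact permutation p was 0.1, the smallest possible, and 0.6 after adjustment over 24 class comparisons. It was the only one of 8 U classes to lie apart, where 50% of the 32 classes of all bases did, and none did with means in place of medians or with each amplicon scaled to its A and C median. Without untreated replicate 3, all 8 classes lay below the untreated samples. Against ATP-depleted cells U after C, U before C and U before G were lower without overlap, against 71.9% of all classes, and with means none was.

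The contrast between preceding bases was larger in all in vitro samples than in any in-cell sample, but no comparison passed. The ratio of U after a purine to U after a pyrimidine was 1.38, 1.35 and 1.34 in vitro, above the 1.18 to 1.24 of the untreated and the 1.20 to 1.24 of the ATP-depleted samples. The means were 1.36 ± 0.0242 for refolded RNA, 1.20 ± 0.0336 for untreated cells and 1.22 ± 0.0181 for ATP-depleted cells (SD, n = 3). The exact permutation p was 0.1 in each comparison, the smallest possible, and 0.3 after adjustment over 12. U after A over U after C was 1.96 ± 0.0421 in vitro against 1.59 ± 0.0538 in untreated cells. These groups did not overlap, a choice made after the values were seen. A wider ratio in vitro was not particular to U, since at C it was 2.63 ± 0.105 in vitro and 2.26 ± 0.114 in untreated cells. At A it was 1.00 ± 0.0274 and 0.961 ± 0.0163, and at G 0.874 ± 0.0467 and 0.910 ± 0.0330. On the 3′ side the purine ratio overlapped, at 1.27 ± 0.0381 in vitro and 1.29 ± 0.0386 in untreated cells. U before A over U before C was 1.835 ± 0.0794 in vitro and 1.650 ± 0.0441 in untreated cells. These values did not overlap, and this pair was likewise chosen after the values were seen. In ATP-depleted cells the same ratio was 1.711 ± 0.0479 and overlapped the in vitro samples.

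Sites with the largest changes, by rule among called U whose groups did not overlap, are shown with their surroundings as before. The first 4 were higher in vitro than in untreated cells and the last 4 lower.
Ddx17 U635: tggtggtTactaagt
Mbnl1 U666: caaagggTctgccac
Taok2 U479: taggggcTgtcactc
Eif5 U202: ccgctgcTcggcggc
Chtop U291: ggagcgcTggcgtcc
Azin1 U461: acctagcTgatgata
Kmt2e U366: ttgtggaTgcactta
Ddx17 U870: tacctacTcagggca
Ddx17 U635 had 516, 793 and 674 CPM in untreated cells and 12668, 11459.6 and 8601 CPM in vitro, a difference of 1.86 ± 0.116 (SE) on the log2(CPM + 3196.78) scale (limma adjusted p = 0.000264). Its in vitro samples were all more than 10 times the untreated ones, and the 435 to 547 CPM after ATP depletion lay with the untreated values. The A after it rose with it, from 1426 to 4951 CPM (limma adjusted p = 0.00324), and so did the U before it, from 695 to 1924 CPM (limma adjusted p = 0.0183). Eif5, a translation initiation factor, had 6570.2, 6405 and 5232 CPM in untreated cells at U202 and 17872, 19182 and 18396.5 CPM in vitro (difference 1.23 ± 0.0964, limma adjusted p = 0.000655). Both C beside it rose too, from 5244 to 9815 CPM before it and from 9285 to 19963 CPM after it. Mbnl1, a splicing regulator, rose by 1.31 ± 0.295 at U666 (limma adjusted p = 0.0321), with 1 in vitro sample at 23335 CPM and the others at 7537 and 9755 CPM. Neither neighbour of that U was called, and the call was lost without any one of the in-cell samples (adjusted p up to 0.0962). Taok2, a kinase, rose by 1.29 ± 0.199 at U479, and by 0.88 in a second amplicon (limma adjusted p = 0.0078 and 0.048).

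Chtop, a chromatin protein, fell at U291 from 8635, 10698.6 and 5033 CPM in untreated cells to 398, 57.6 and 742 CPM in vitro (difference −1.63 ± 0.228, limma adjusted p = 0.00561). The C before it fell as well, from 3321 to 533 CPM. Azin1, an inhibitor of antizyme, fell at U461 from 5887, 8608 and 7250 CPM to 1212, 717 and 1082 CPM, with the C before it going from 8012 to 2705 CPM. Ddx17 U870 went from 11540.3, 14158.5 and 10365 CPM to 1699, 5855 and 2672 CPM, and the C on either side fell with it. Kmt2e, a chromatin regulator, was the only fall here whose preceding base was not called. Its U366 went from 6969, 6024 and 4859 CPM to 946, 225 and 780 CPM. The A before it had 9764 ± 2204 CPM in untreated cells and 9904 ± 6865 CPM in vitro (SD, n = 3). With that spread in vitro, the close means do not show that this A was unchanged. A second amplicon gave a difference of −0.47 at U366 that was not called (limma adjusted p = 0.066).

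Against ATP-depleted cells the named rises included Ddx17 U635, Mbnl1 U658 and Taok2 U479, and the falls were Chtop U291, Ddx17 U870, Smad6 U932 and Klf7 U252. The second amplicon of Taok2 U479 differed by 0.37 here and was not called (limma adjusted p = 0.376). Mbnl1 U658 had 1760.1, 2192 and 1196 CPM after ATP depletion and 14702, 6967 and 4022 CPM in vitro (difference 1.16 ± 0.290, limma adjusted p = 0.0463), and the C after it rose from 2989 to 8757 CPM. Smad6 U932 had 4073, 8328 and 6217.5 CPM after ATP depletion and 498, 208 and 287 CPM in vitro (difference −1.39 ± 0.204, limma adjusted p = 0.00674). Neither neighbour of that U was called, and the A before it was at 5804 and 7674 CPM. Klf7 U252 fell by 1.33 ± 0.159 in 1 amplicon and differed by 0.01 in a second that also reads it (limma adjusted p = 0.00305 and 0.99), so the second reading did not show the fall.

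Called U tended to lie beside called A or C. In vitro against untreated cells, 24.4% of U were called where the preceding A or C was called and 5.31% elsewhere. Of 105 such pairs with both called, 94 moved in the same direction. With the following A or C the shares were 19.4% and 4.71%, and 77 of 81 pairs agreed in direction. The log2 differences of U and of an adjacent A or C had a Spearman correlation of 0.30 before and 0.29 after the U, given as a description across sites that share both sample groups. It was not particular to A and C, with 0.38 for an adjacent U and 0.26 before and 0.17 after the U for G. Between ATP-depleted and untreated cells the correlation with A or C was 0.07 before and 0.06 after the U. Where 2 amplicons read the same U, 47 positions were called in both, all 47 in the same direction, and 126 in 1 only, of which 111 had the same sign in the other.

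By amplicon, U relative to A and C was called in 1 of 161 amplicons (0.621%) against untreated cells and in 4 (2.48%) against ATP-depleted cells. The first was Eed 71 to 321, higher in vitro by 0.37 ± 0.0985, with a smallest library of 478 counts (limma adjusted p = 0.0261). Without untreated replicate 1 or 2, in vitro replicate 2 or ATP-depleted replicate 1 it was not called and the count was 0. Without ATP-depleted replicate 2 or 3 the count was 4, and without untreated replicate 3 it was 3. The 4 lower ones were Tmtc2 498 to 748 (−0.41 ± 0.0985, limma adjusted p = 0.00611), Esco1, Fam13b and R3hdm1. Leaving out ATP-depleted replicate 2 or in vitro replicate 1 left 0 amplicons called against ATP-depleted cells. The count was 51 without ATP-depleted replicate 3, 16 without untreated replicate 3, and 1 without ATP-depleted replicate 1, untreated replicate 1 or in vitro replicate 2 or 3.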

How the data were processed

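Mutations left by DMS were read by amplicon sequencing (250 nt amplicons) in 9 samples. The authors deposited 1 log2 value per nucleotide and sample, and the submitters' processing notes name bcl2fastq, Bowtie2 and limma without versions. From the values, each deposited log2 value is that of a whole count plus 0.5 over the amplicon's scaled total, per 1000000. Whole counts were recovered in 1449 of 1449 libraries of an amplicon and a sample (tolerance 0.0001), so coverage, and with it a mutation rate, is not known. Libraries held 96 to 624295 counts, with a median of 40815.

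CPM values were summarised by median per class and sample. All 32938 nucleotides with a count in the 9 samples entered 1 model of log2(CPM + 3196.78), computed with limma 3.58.1 (R 4.3.3), with Benjamini-Hochberg adjustment and a threshold of 0.05. The added constant is 0.5 times the median CPM of A and C. Folds of weak U are understated on this scale. U minus A and C was fitted in the same way per amplicon, over 161 amplicons. Group values used two-sided exact permutation tests, and ratios over 9 samples exact sign-flip tests (SciPy 1.17.1). The scripts were tested on simulated data.

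Named sites are the strongest and weakest U in amplicons of at least 5000 counts per sample, the highest by following base, and the 4 largest changes in each direction among called U without overlap, with at most 1 per transcript and direction. A site that met this rule against ATP-depleted cells is not reported here. The U set, classes and lists were chosen with earlier results of these data known. Alternatives covered the constant, scale, depth, ends, low values, weights, samples fitted and each library left out.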

Additional observations from a re-analysis of the deposited data

How the results depend on the processing

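Signal is relative within an amplicon, and 19 to 35 amplicons per in vitro sample held under 5000 counts. No U was called between ATP-depleted and untreated cells in any setting. Called U in vitro against untreated cells were 564, with 322 among nucleotides of at least the median CPM, 237 with only the 6 samples compared, and 225 to 515 with 1 library left out. Against ATP-depleted cells they were 543, with 306, 298 and 195 to 534. Fewer nucleotides or samples entered these fits. Called amplicons were 1 against untreated cells and 4 against ATP-depleted cells. They became 0 with the constant at 0.1 times the A and C median, 0 and 9 on the deposited log2 scale, 0 and 2 in amplicons of at least 5000 counts, 9 against ATP-depleted cells without 25 end nucleotides, 4 against untreated cells with 6 samples, and 0 to 4 and 0 to 51 with 1 library left out. Classes without overlap were 0, 1 and 3 for ATP-depleted against untreated, in vitro against untreated and in vitro against ATP-depleted. With means the last 2 became 0 and 0, with A and C scaling the second became 0, and with 1 library left out the ranges were 0 to 3, 1 to 8 and 3 to 8. U over A and C, in vitro minus untreated, was -0.038, and with 1 library left out it ranged from -0.0840 to 0.00122, reversed without untreated replicate 2. The cause was not tested. With a replicate block, called U were 486 and 470, called amplicons 4 and 31, and 8 classes were higher in all pairs after ATP depletion. Deviations of same-numbered samples correlated at -0.00097 to 0.0840 at U and 0.00386 to 0.0887 over all 4 bases. For ATP-depleted against untreated, in vitro against untreated and in vitro against ATP-depleted, a sample was closest to its own number in 5, 3 and 3 of 6 cases at U and in 6, 6 and 4 of 6 over all bases, a hint of pairing from the data and not from the design. The ratios over 9 samples were the same in 84 of 84 alternatives. Named sites kept their call in 318 of 346 alternatives and reversed in 0.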

Other observations

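Transcripts differed in how strong U was beside their own A and C. The transcripts named here were chosen after their values were seen, and no test was made. Acvr2a, an activin receptor, had the highest ratio of the U median to the A and C median, with a mean of 1.13 over the 9 samples and a range of 0.980 to 1.35 (55 U readings). Of its U, 3.64% had an A on at least 1 side and 32.7% a C. Rbm10, an RNA-binding protein, had the lowest ratio, at 0.363 with a range of 0.256 to 0.505 (33 U readings), with 36.4% of its U beside an A and 54.5% beside a C. Rarg, a retinoic acid receptor, came next at 0.383 with a range of 0.200 to 0.594 (31 U readings), and its smallest library held 458 counts. Sema6a, a semaphorin, followed at 0.428 with a range of 0.212 to 0.571 (36 U readings), in libraries of at least 3302 counts.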
